A study of Mus musculus with 10 samples.

Results

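The genes described here are 10 tetraspanins known from platelets and their granules, chosen by name: Cd9, Cd63, Cd81, Cd82, Cd151, Cd37, Tspan9, Tspan32, Tspan33 and Tspan14. They are 10 of the 53819 gene symbols counted, and each had a row. RNA-seq libraries were made from platelets of P7 mice, taken to be 7 days after birth (5 libraries, with the letters A, B, C, E and I), and of adult mice (5 libraries, A, B, C, G and H). The labels give no strain, sex, genotype, treatment or adult age, and do not say whether a library is 1 animal or a pool, so p-values measure only the spread between these libraries. Totals were 19431863 to 25029931 counts at P7 and 19541997 to 23291269 counts in adults.

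Tetraspanins are small membrane proteins that cross the membrane several times and gather integrins, adhesion receptors and proteases into patches of the cell surface. On platelets they sit on the plasma membrane and on granule membranes, and they are the standard markers of extracellular vesicles. Platelets have no nucleus, so their transcripts come from the parent megakaryocytes. In bulk RNA, more RNA per platelet and more cells of another type that express the gene cannot be told apart. All 12 platelet marker genes fixed for this work, among them Pf4 and Itga2b, were detected in every library, and their summed level was 54798 to 77068 CPM (counts scaled to the library total) at P7 and 53038 to 82025 CPM in adults. Of these 12 markers 4 were called higher and 3 lower at P7, by the test given below. Of all genes tested 13.8% were called higher and 13.9% lower. Among the markers called lower was Ppbp, at 7233 CPM in P7 libraries and 21408 CPM in adult libraries.

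Cd9 was lower at P7 than in adults, and Cd37 and Tspan32 were higher. These 3 of the 8 members that could be tested passed (edgeR's quasi-likelihood test, Benjamini-Hochberg adjusted p under 0.05 over all 8198 genes tested). Of all genes tested 27.7% passed, 13.8% higher and 13.9% lower at P7, so the members' count is near the background. Cd63, Cd81, Cd151, Tspan9 and Tspan14 did not pass, and Cd82 and Tspan33 had too few counts to test. The 8 tested members had at least 115 counts in each library, so none passed the filter on low counts through 1 age alone.

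The start regions of the 3 members that passed are shown, Cd9, lower at P7, and Cd37 and Tspan32, both higher. That of Cd81, which did not pass and is the next protein-coding gene after Tspan32 on the chromosome, is shown beside them. Each is the 250 bases before the RefSeq transcription start in GRCm38.p6, 5′ to 3′ on the gene's strand. The sources used here do not give the genome build behind the counts. Capitals mark matches on either strand to a GATA motif (AGATAA or AGATAG), an ETS motif (AGGAAG or CGGAAG) or a GC box (GGGCGG). In Cd81 a GC box overlaps the ETS match.
Cd9, chr6:125494761-125495010, minus strand: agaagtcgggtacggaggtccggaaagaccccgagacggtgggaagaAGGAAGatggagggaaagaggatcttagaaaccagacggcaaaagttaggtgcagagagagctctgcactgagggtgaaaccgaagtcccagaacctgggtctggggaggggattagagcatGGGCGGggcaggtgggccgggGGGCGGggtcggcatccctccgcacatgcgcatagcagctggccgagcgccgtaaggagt
Cd81, chr7:143052500-143052749, plus strand: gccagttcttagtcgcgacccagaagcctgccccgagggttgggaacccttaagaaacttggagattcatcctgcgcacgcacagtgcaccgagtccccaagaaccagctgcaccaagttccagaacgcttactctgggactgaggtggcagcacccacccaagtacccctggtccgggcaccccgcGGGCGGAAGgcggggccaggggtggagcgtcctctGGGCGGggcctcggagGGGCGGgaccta
Cd37, chr7:45238840-45239089, minus strand: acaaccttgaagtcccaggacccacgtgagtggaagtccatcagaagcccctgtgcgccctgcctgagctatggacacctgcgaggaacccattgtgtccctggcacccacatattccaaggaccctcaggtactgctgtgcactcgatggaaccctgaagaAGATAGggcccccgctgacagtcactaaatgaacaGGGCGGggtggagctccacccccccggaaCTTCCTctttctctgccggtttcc
Tspan32, chr7:143004796-143005045, plus strand: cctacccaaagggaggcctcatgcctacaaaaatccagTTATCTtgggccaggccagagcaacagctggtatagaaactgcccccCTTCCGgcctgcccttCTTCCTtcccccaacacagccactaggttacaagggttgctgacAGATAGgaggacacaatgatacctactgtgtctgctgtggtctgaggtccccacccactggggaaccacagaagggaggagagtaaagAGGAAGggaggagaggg

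Windows were found for all 10 members. The windows of Cd37 and Tspan32 held 1 and 2 GATA matches, and no window of the other members held one. Over 32851 windows of this length in the table, 16.5% held a GATA match, 39.2% an ETS match and 32.7% a GC box. Cd9 and Cd81 had 16 CG dinucleotides each in this window, Cd37 8 and Tspan32 1, where the median of all windows was 6. These matches describe the letters only.

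Levels between genes are compared as CPM per kilobase of exon. Cd9 led at both ages, at 9913 ± 1216 CPM per kb in P7 libraries and 16660.4 ± 2443 CPM per kb in adult libraries (SD, n = 5 per age). Cd81 was second, at 1430.5 ± 239 CPM per kb in P7 libraries and 1241 ± 184 CPM per kb in adult libraries. Neither gene's range overlapped that of the next gene at either age.

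Cd151, Tspan14 and Tspan9 followed, with mean levels of 110.2 to 166 CPM per kb in P7 libraries and 128 to 190 CPM per kb in adult libraries, and their library ranges overlapped. A lower tier of Tspan32, Cd37 and Cd63 stood at 7.16 to 12.6 CPM per kb in P7 libraries and 3.97 to 11.9 CPM per kb in adult libraries. Within it Tspan32 ranked above Cd37 and Cd63 at P7, while Cd63 ranked first in adults, and neighbours in that order overlapped at both ages. Cd82 and Tspan33 came last, at 0.177 and 0.120 CPM per kb at P7 and 0.296 and 0.0258 CPM per kb in adults.

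**Figure D1:**
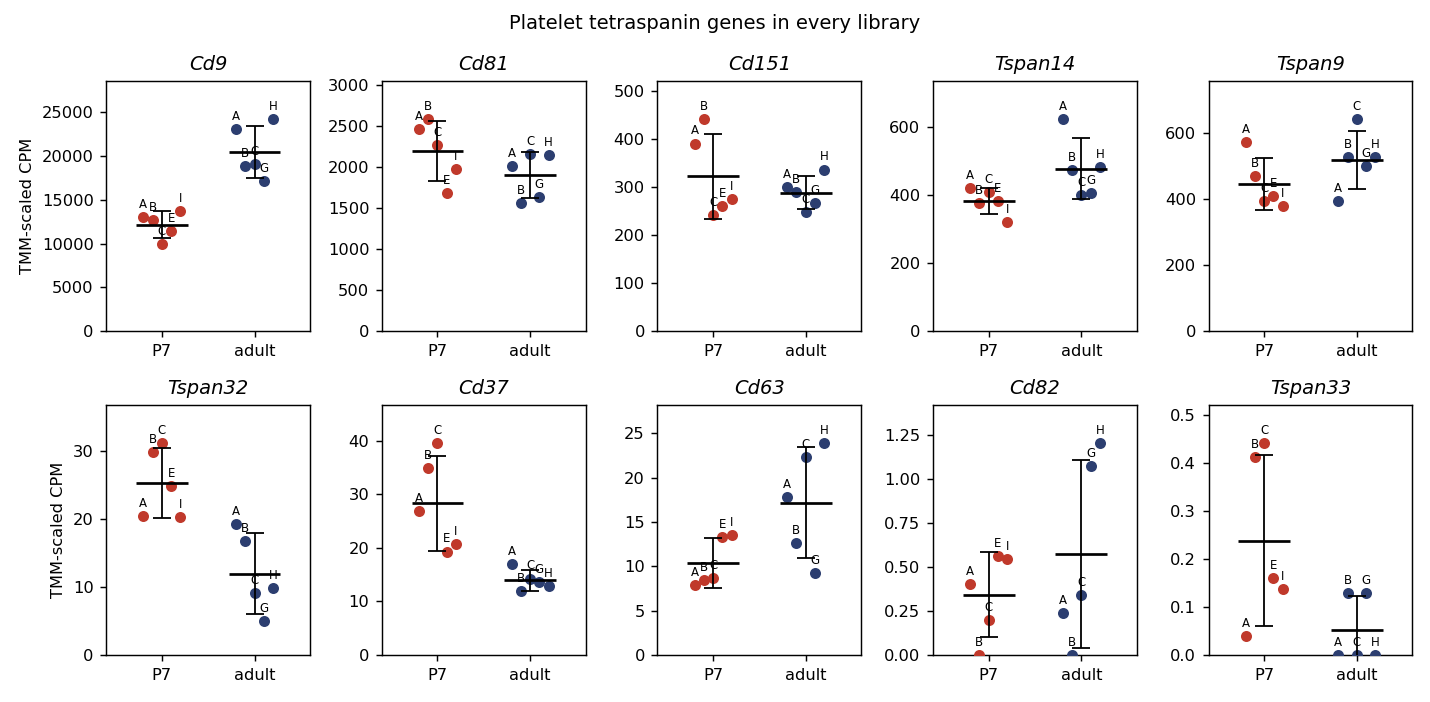
Level of each member in every library as TMM-scaled CPM (y axis, from 0, a separate scale for each gene), with P7 libraries left and adult libraries right. Points carry the library letter, and lines and bars give mean and SD (n = 5 each). All P7 points of Cd9 lie below all adult points, and all P7 points of Cd37 and Tspan32 lie above all adult points, for Tspan32 by a narrow gap (20.3 against 19.3 CPM).

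CD9 is the most abundant tetraspanin of the platelet surface, where it associates with the fibrinogen receptor, and it is also found on alpha-granule membranes. Cd9 had 13013, 12729.5, 9934, 11473 and 13719.6 CPM in P7 A, B, C, E and I, against 23040.3, 18822, 19034, 17198 and 24201 CPM in adult A, B, C, G and H. Every P7 library lay below every adult library, as for 9.76% of all genes tested (19.8% did not overlap in either direction). Cd9 fell by 0.75 on the log2 scale (SE 0.13, fold 0.595), with edgeR quasi-likelihood adjusted p = 0.000766.

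The call of Cd9 held in all 21 other settings, where its log2 fold change was -0.83 to -0.67. Cd9 held 1.24 ± 0.149% of a P7 library's counts and 1.99 ± 0.193% of an adult library's (SD, n = 5 per age). The SD between libraries was 12.3% of the mean at P7 and 14.7% in adults.

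CD81 is a widely expressed relative of CD9. Cd81 had 2464, 2580.3, 2265, 1683 and 1972 CPM in P7 A, B, C, E and I, against 2013, 1563, 2152, 1638 and 2146 CPM in adult A, B, C, G and H. The ages overlapped, with P7 A, B and C above every adult library and P7 E and I within the adult range. The log2 fold change of 0.21 ± 0.15 (SE) did not pass (edgeR quasi-likelihood adjusted p = 0.33).

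The balance of the leading pair was also taken within each library, where scaling factors cancel. Per kilobase, Cd9 exceeded Cd81 7.08 ± 1.44 times in P7 libraries and 13.5 ± 1.54 times in adults (SD, n = 5 per age). The ratio was 5.48 to 8.68 in P7 libraries and 11.04 to 15.03 in adult ones, with no overlap. Cd9 exceeded the integrin gene Itga2b 1.33 ± 0.437 times in P7 libraries and 3.12 ± 0.542 times in adults, also with no overlap between the ages. These ratios were chosen after the values were seen and are given with no test.

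**Figure D2:**
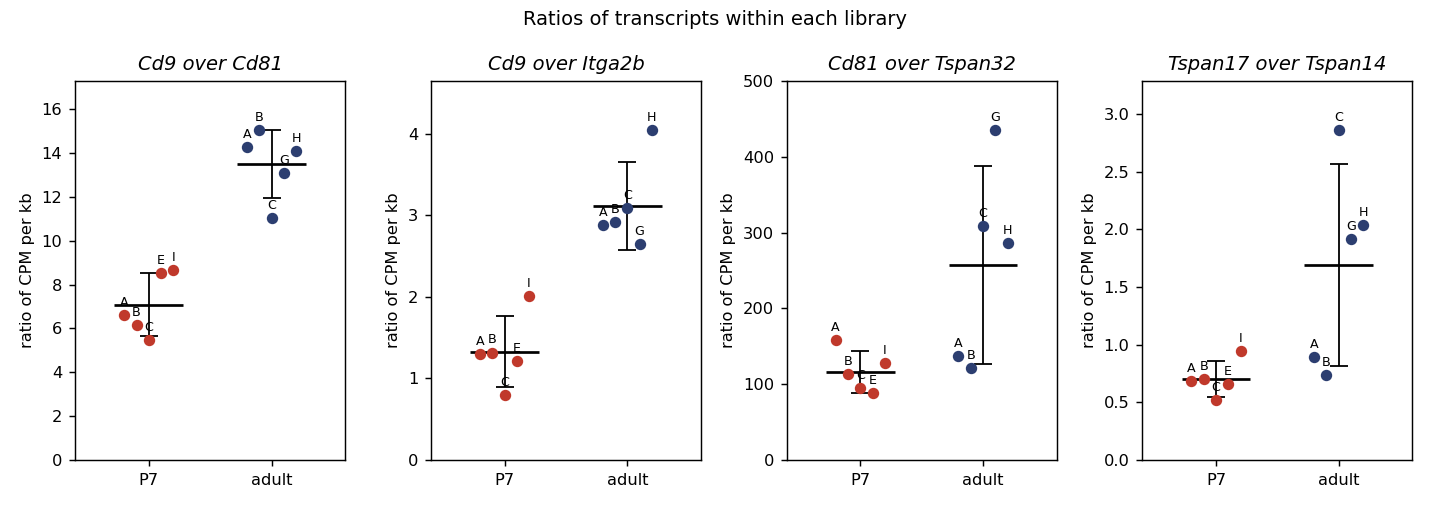
Ratios of CPM per kb within each library (y axis, from 0) for Cd9 over Cd81, Cd9 over Itga2b, Cd81 over Tspan32 and Tspan17 over Tspan14, with P7 left and adults right. Points carry the library letter, and lines and bars give mean and SD (n = 5 each). The ages separate for the first 2 ratios, while adult A and B lie within or beside the P7 range for the other 2.

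CD151 binds the laminin-receptor integrins, and in mice its loss impairs signalling by the fibrinogen receptor after ligand binding. Cd151 had 390.4, 441, 242, 260.4 and 275 CPM in P7 A, B, C, E and I, against 301, 289, 248, 267 and 336 CPM in adult A, B, C, G and H. P7 A and B were above every adult library, the other P7 libraries were within or just below the adult range, and the spread was wider at P7 (27.4% of the mean) than in adults (11.7%). The log2 fold change was 0.16 ± 0.18 (SE, edgeR quasi-likelihood adjusted p = 0.54), and -0.061 with the GC trend removed.

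TSPAN9 is enriched in megakaryocytes and platelets and associates with the collagen receptor GPVI and with a laminin-receptor integrin. Tspan9 had 573, 469, 394, 409.9 and 379 CPM in P7 A, B, C, E and I, against 395, 528, 642, 501 and 528 CPM in adult A, B, C, G and H. The ages overlapped, with adult A among the P7 libraries and P7 A among the adult ones. The log2 fold change of -0.22 ± 0.16 (SE) did not pass (edgeR quasi-likelihood adjusted p = 0.32). With the GC trend removed it was -0.49 ± 0.16 (SE) and passed (edgeR adjusted p = 0.0359).

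TSPAN32, also called TSSC6, is found mainly in blood cells, and in mice its loss also impairs signalling by the fibrinogen receptor. Tspan32 had 20.4, 29.9, 31.2, 24.8 and 20.3 CPM in P7 A, B, C, E and I, against 19.3, 16.8, 9.12, 4.93 and 9.81 CPM in adult A, B, C, G and H. No P7 library overlapped an adult one (10.1% of all genes tested lay wholly higher), but adult A and B came close to the P7 range and adult C, G and H were lower. Tspan32 rose by 1.08 ± 0.31 on the log2 scale (SE), with edgeR quasi-likelihood adjusted p = 0.0168.

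Tspan32 kept its call without any 1 library, at 0.85 to 1.30. In the 6 libraries with the letters A to C its log2 fold change was 0.81 and did not pass (edgeR quasi-likelihood adjusted p = 0.075). Its neighbour Cd81 exceeded it, per kilobase, 116 ± 27.8 times in P7 libraries and 258 ± 130.4 times in adults (SD, n = 5 per age), and these ratios overlapped, with adult A and B inside the P7 range. Other members lie near tetraspanins outside the set, in the order of protein-coding genes alone (GENCODE M21). Cd82 adjoins Tspan18, Tspan9 adjoins Tspan11, and Polr2l alone lies between Cd151 and Tspan4.

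CD37 is a tetraspanin of leukocytes, strongest on B cells. Cd37 had 26.9, 35.03, 39.6, 19.3 and 20.7 CPM in P7 A, B, C, E and I, against 17.0, 11.9, 14.3, 13.6 and 12.9 CPM in adult A, B, C, G and H. The P7 libraries were all higher than the adult ones, with P7 B and C highest. Cd37 rose by 1.02 ± 0.22 on the log2 scale (SE, fold 2.03), with edgeR quasi-likelihood adjusted p = 0.00323. With the GC trend removed it was 0.68 and still passed (edgeR adjusted p = 0.0257).

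Beside Cd37, the 10 B cell markers summed to 7.20 to 23.3 CPM in P7 libraries and 2.98 to 5.87 CPM in adult ones. The defining marker Cd79a averaged 0.912 CPM in P7 libraries (0.282 to 2.68) and 0.134 CPM in adult libraries (0.0428 to 0.286). Cd22 went the other way, at 0.0961 CPM in P7 libraries and 0.143 CPM in adult libraries. Of the 10 markers 2 were tested, Ighm, which was called higher, and Ighd, which did not pass. Of the list only Cr2 was at 0 throughout 1 age, the adults. P7 E had the highest B cell sum, 23.3 CPM, and the lowest Cd37 level of the P7 libraries. Cd37 still passed without P7 E, at 1.11 log2. Leaving out the P7 library with the lowest Cd37 level raises that value in any case, so this fit cannot show what part B cells have. The 12 neutrophil markers summed to 2.45 to 6.30 CPM in P7 libraries and 1.09 to 1.63 CPM in adult libraries, with Ly6g and Cxcr2 at 0 in all libraries. Of the 12, 8 were at 0 throughout the adults and 2 throughout P7. Only Mmp8 was tested, and it did not pass. The 12 T and NK cell markers summed to 9.96 to 16.1 CPM in P7 libraries and 13.2 to 23.9 CPM in adult libraries. Erythroid markers summed to 909.8 to 2524 CPM in P7 libraries and 551 to 1757 CPM in adult libraries, endothelial markers to 189 to 329 CPM in P7 libraries and 115 to 265 CPM in adult libraries, and monocyte markers to 2243 to 3457 CPM in P7 libraries and 2911 to 6085 CPM in adult libraries. Single genes carried some of these sums, and Lyz2 carried nearly all of the monocyte sum. Without Lyz2 the monocyte markers summed to 4.06 to 6.39 CPM in P7 libraries and 1.91 to 7.31 CPM in adult libraries, and without Hba-a1 the erythroid markers summed to 127 to 333 CPM in P7 libraries and 60.3 to 96.6 CPM in adult libraries. Without Nkg7 the T and NK cell markers summed to 6.002 to 11.7 CPM in P7 libraries and 8.02 to 11.2 CPM in adult libraries. Without Ighm the B cell markers summed to 1.76 to 10.04 CPM in P7 libraries and 0.516 to 2.06 CPM in adult libraries. Without Tie1 the endothelial markers summed to 102 to 228 CPM in P7 libraries and 48.1 to 84.6 CPM in adult libraries, with no overlap. Without Mmp8 the neutrophil markers summed to 1.17 to 4.38 CPM in P7 libraries and 0.0574 to 0.774 CPM in adult libraries, also with no overlap. The part of these cells in the levels of the members was not tested.

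CD63 marks late endosomes, lysosomes and the dense granules of platelets, and reaches the surface when granules are released. Cd63 had 7.93, 8.42, 8.68, 13.3 and 13.6 CPM in P7 A, B, C, E and I, against 17.8, 12.7, 22.3, 9.25 and 23.9 CPM in adult A, B, C, G and H. The groups overlapped, with adult G among the P7 libraries and P7 E and I above adult B. The log2 fold change of -0.73 ± 0.27 (SE) did not pass (edgeR quasi-likelihood adjusted p = 0.0588).

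Cd63 lay near the threshold in other fits too. It passed in 9 of 21 other settings at log2 fold changes of -1.11 to -0.74, among them DESeq2 (-0.75, adjusted p = 0.0325) and the fit without adult G (-0.91, edgeR quasi-likelihood adjusted p = 0.0167). A pseudogene row, Cd63-ps, held 12 counts at P7 and 8 in adults, and reads that fit both copies are uncertain.

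TSPAN14 and TSPAN33 belong to the TspanC8 group, which escorts the protease ADAM10 out of the endoplasmic reticulum and sets its activity at the surface. Tspan14 had 421, 375, 408, 383 and 321 CPM in P7 A, B, C, E and I, against 622, 472, 399, 406 and 483 CPM in adult A, B, C, G and H. Adult C and G lay within the P7 range and adult A stood highest. The log2 fold change was -0.32 ± 0.15 (SE, edgeR quasi-likelihood adjusted p = 0.12), and -0.45 ± 0.14 (SE) with the GC trend removed, which passed (edgeR adjusted p = 0.0349).

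Tspan33, known from red cell precursors and activated B cells, had 27 counts over the P7 libraries and 6 over the adult ones. It was detected in all P7 libraries, at 0.0402 to 0.442 CPM, and had 0 counts in adult A, C and H. Cd82, first known as a suppressor of metastasis, had 41 counts at P7 and 58 in adults, with 0 counts in P7 B and adult B. A count of 0 allowed up to 3 counts, which is at most 0.155 CPM for Cd82 and 0.172 CPM for Tspan33 in the libraries at 0. Neither gene reached the filter, so neither was tested for a difference.

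**Figure D3:**
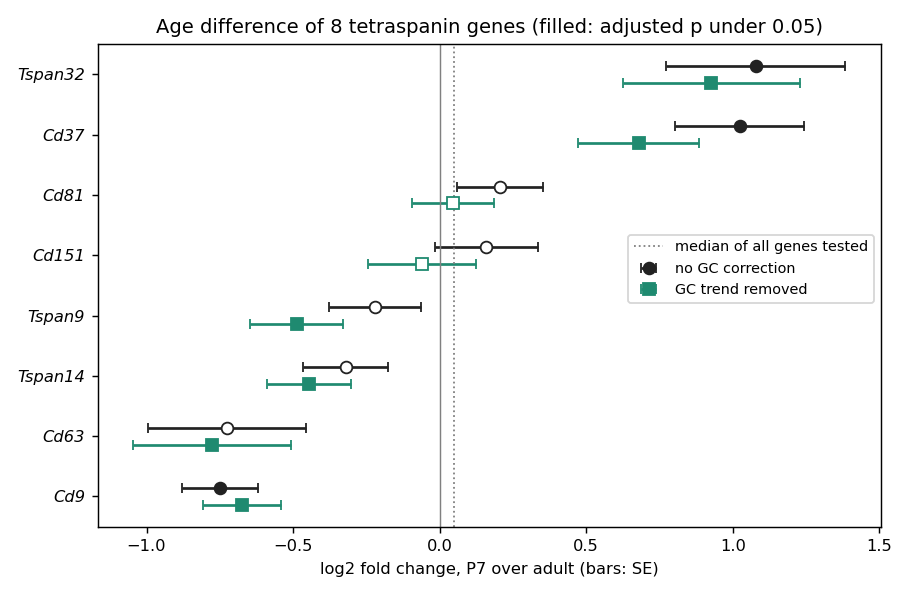
Log2 fold change of the 8 tested members, P7 over adult (x axis, bars SE), in the fit on all 10 libraries (circles) and with the GC trend removed (squares). Filled symbols passed at an adjusted p under 0.05, and the dotted line is the median of all genes tested, 0.05. Cd9, Cd37 and Tspan32 are filled in both fits, Cd63, Tspan9 and Tspan14 in the second alone, and Cd151 changes side.

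Fold changes over all genes followed the GC content of the transcript, as a Spearman correlation of 0.277 over 8140 genes, and genes are not independent. The median transcript was 52.7% GC among genes called higher and 46.1% among genes called lower. Among the members Cd9 had the lowest GC content, 45.9%, and Cd37 had 57.3%. Tspan32, also called higher, had 51.7%, within the 49.6% (Cd63) to 55.3% (Tspan9) of the tested members that did not pass. With this trend removed 6 of the 8 members passed, 2 higher and 4 lower, where 25% of all genes tested passed, 11.2% higher and 13.8% lower. On the 6 libraries with the letters A to C, with the trend removed and the letters as a block, 2 members passed, both lower. The cause of the trend was not tested.

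Summed over the 10 members, levels were 13323 to 16917 CPM in P7 libraries and 20039 to 27742 CPM in adult libraries, with no overlap. Without Cd9 the sums were 2795 to 3938 CPM in P7 libraries and 2841 to 3541 CPM in adult libraries, and they overlapped almost fully. Cd9 made up 83.9 ± 2.50% of the members' summed level per kilobase at P7 and 90.5 ± 0.818% in adults (SD, n = 5 per age). Cd81 made up 12.2 ± 2.09% at P7 and 6.77 ± 0.789% in adults, again with no overlap. These shares are tied to each other, since they add up to the whole.

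The members held 97.9 ± 0.132% of the per-kilobase level of all tetraspanins at P7 and 97.4 ± 0.679% in adults (SD, n = 5 per age). Most of this was Cd9, which alone held 82.2 ± 2.52% at P7 and 88.2 ± 1.36% in adults. Outside the set, Tspan2 averaged 111 CPM per kb in P7 libraries and 131 CPM per kb in adult libraries, beside Tspan9. Tspan17, another TspanC8 gene, averaged 105 CPM per kb in P7 libraries and 303 CPM per kb in adult libraries, rank 7 of the family at P7 and rank 3 in adults. Of 21 other tetraspanins with a row, 12 were tested, of which 2 were higher and 2 lower (13.8% and 13.9% of all genes tested). Their median log2 fold change was -0.05 against 0.05 for all genes tested. The 8 tested members had a median of -0.03.

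Tspan17 fell by 1.53 ± 0.26 on the log2 scale (SE, edgeR quasi-likelihood adjusted p = 0.000679). It had 188, 170.4, 137, 163 and 197 CPM in P7 A, B, C, E and I, against 362, 225, 740.3, 504 and 638 CPM in adult A, B, C, G and H. Adult A and B were again nearest to P7, as for Tspan32. Per kilobase, Tspan17 stood at 0.517 to 0.943 times Tspan14 in P7 libraries and at 0.735 to 2.86 times in adult ones, and the ages overlapped. Tspan12 fell by 0.89. Tspan4 rose by 1.68, at 2.13 CPM at P7 against 0.668 CPM in adults, and Tspan3 rose by 1.71, at 1.30 CPM at P7 against 0.399 CPM in adults. Tspan3 lost its call in 10 of 20 other settings, Tspan4 in 3 of 20 (down to 0.67) and Tspan12 in 4 of 21, among them the GC correction (-0.57).

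Cd53, a leukocyte tetraspanin named whatever its result, had 11.9, 11.4, 18.6, 5.04 and 10.5 CPM in P7 A, B, C, E and I, against 38.7, 45.8, 9.70, 13.8 and 13.7 CPM in adult A, B, C, G and H. Adult A and B were high and the other adult libraries were within the P7 range. Its log2 fold change of -1.08 ± 0.45 (SE) did not pass (edgeR quasi-likelihood adjusted p = 0.0962).

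Of the 22 proteins chosen as tetraspanin partners 15 were tested, 2 higher and 4 lower (13.8% and 13.9% of all genes tested), with a median log2 fold change of -0.26. The fibrinogen receptor genes Itga2b and Itgb3, whose products associate with CD9, rose by 0.55 and 0.90. Itga2b lost its call with the GC trend removed (0.18). The collagen receptor genes Gp6 and Itga2 fell by 0.37 and 0.88, and Itga6, a laminin-receptor chain and partner of CD151, fell by 0.40. Its partner chain Itgb1 had a log2 fold change of 0.22 ± 0.14 (SE) and did not pass.

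Several partner calls depended on the setting, with Itga6 lost in 13, Gp6 in 9 and Adam17 in 8 of 21 other settings. The count was 3 with the GC trend removed and 3 by library size alone. Igsf8 and Ptgfrn, which encode the closest known binding partners of CD9 and CD81, had 42 and 7 counts at P7 and 5 and 0 counts in adults, and were not tested.

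ADAM10, the partner of the TspanC8 group, sheds platelet receptors such as GPVI. Adam10 averaged 187 ± 37.2 CPM in P7 libraries and 248 ± 34.9 CPM in adult libraries (SD, n = 5 per age), and its log2 fold change of -0.41 ± 0.16 (SE) did not pass (edgeR quasi-likelihood adjusted p = 0.0747). The related sheddase gene Adam17 fell by 0.64, and Rhbdf1, which encodes an escort of ADAM17, rose by 1.06. Of 12 genes in this list 7 were tested, with 1 higher and 2 lower (13.8% and 13.9% of all genes tested) and a median of -0.32. The list includes Tspan14 itself. Only Tspan17 stayed called without P7 A or without adult A or B, and Rhbdf1 lost its call in 13 of 20 other settings.

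Of 23 tested genes of CD63 sorting and of vesicle release 4 were higher and 5 lower and 14 did not pass, with a median log2 fold change of 0.12. Of all genes tested 13.8% were higher and 13.9% lower. The AP-3 adaptor sorts CD63 to lysosomes and dense granules. Its subunit genes Ap3b1 and Ap3d1 rose by 1.43 and 0.56, while Ap3m1 fell by 1.63, at 3.18 CPM at P7 against 9.86 CPM in adults. The subunit genes Ap3s1 and Ap3s2 did not pass, at log2 fold changes of -0.19 and 0.28. Ap3d1 lost its call in 8 of 21 other settings (down to 0.28). Flot1, a gene of membrane raft scaffolds, rose by 0.78 and lost its call in 4 of 21 (down to 0.20). Lamp2, a lysosome membrane gene, fell by 0.89, as 712 ± 62.7 CPM in P7 libraries and 1322 ± 188 CPM in adult libraries (SD, n = 5 per age), and lost its call in 1 of 21 other settings (-0.36). Pld2, a phospholipase gene, fell by 1.39. Sdcbp, which encodes the CD63 adaptor syntenin, had a log2 fold change of -0.28 ± 0.11 (SE) and did not pass (edgeR quasi-likelihood adjusted p = 0.0814). Without P7 E 5 of the list were called.

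**Figure D4:**
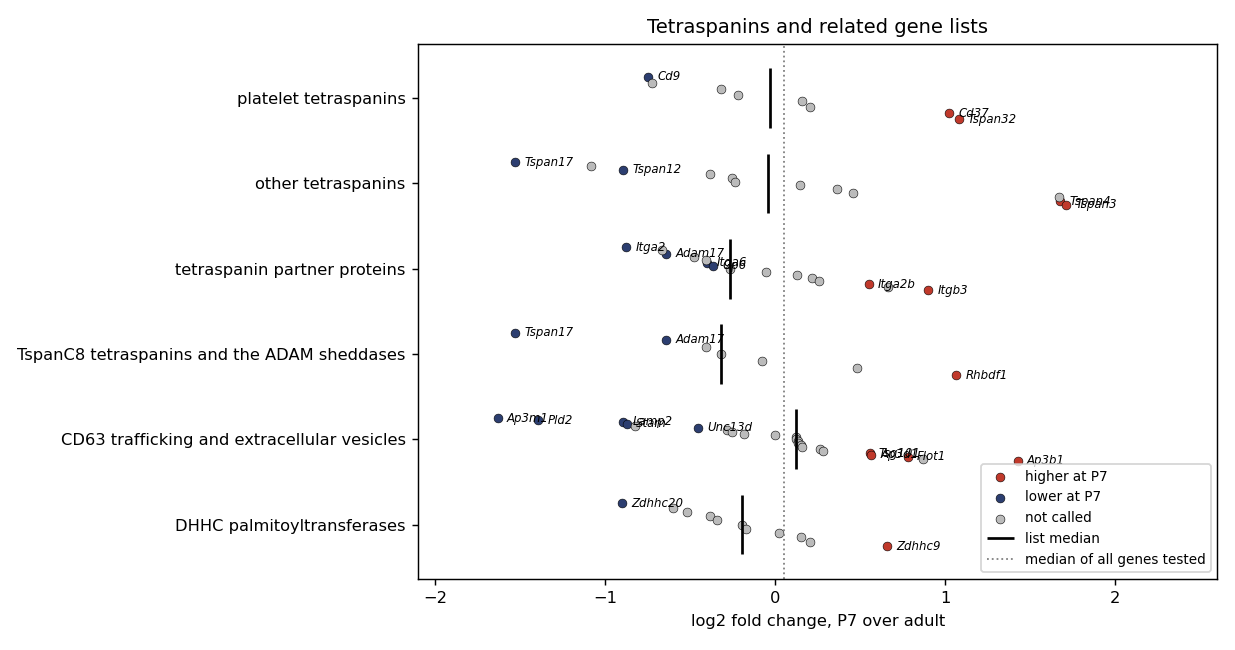
Log2 fold change, P7 over adult (x axis), of each tested gene in the 10 members and 5 related lists (rows). Red points were called higher and blue points lower at P7, grey points were not called, black bars are list medians and the dotted line is the median of all genes tested (0.05). Each list holds calls on both sides of 0.

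The genes whose pattern over the 10 libraries lay closest to each member were found among 2024 other genes that averaged 20 CPM or more. The measure was the root mean square difference of log2 CPM after centring each gene on its own mean. For Cd9 they were Alox5ap, whose product helps start leukotriene synthesis, Cdc42 and Mtpn, at 0.13 to 0.14 log2 units, against a spread of Cd9 itself of 0.41. For Cd37 they were Cox6a1, Emc10 and Atp5a1, at 0.22 to 0.23, against a spread of Cd37 itself of 0.58. Those of Cd81 (Qsox1, Mob3a and Wbp1), Cd151 (Fbxw2, Srd5a3 and Atg13), Tspan9 (Dennd5a, Cd99l2 and Akt2) and Tspan14 (Mark2, Prmt2 and Add3) lay at 0.12 to 0.21. The spreads of these members themselves were only 0.23 to 0.27, so beside their own spread these matches were looser than those of Cd9. Cd63 and Tspan32 were under the 20 CPM limit.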

How the data were processed

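Platelet RNA was amplified by SMARTer chemistry and made into Nextera XT libraries, read as single ends of 75 nt, per the labels' protocols. The authors deposited raw read counts per gene symbol, whole numbers that were not normalized. The tools listed in the submitters' processing notes, without their roles, are Salmon 1.5.2, featureCounts, Subread 2.0.1, STAR 2.7.9a and fastp 0.23.1. The sources used here do not give the strand setting or genome build. Reads of overlapping antisense genes and of pseudogene copies (Cd9-ps, Cd63-ps) cannot be told apart from the members'. The rows of antisense genes that overlap member exons held at most 62 counts in a library. Without molecular identifiers, limits from counts cover counting error only.

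Genes were kept by filterByExpr (minimum count 10, minimum total 15), scaled by TMM and compared by the quasi-likelihood F test of edgeR 4.0.16 with robust estimation (in R 4.3.3, with limma 3.58.1 and DESeq2 1.42.0 as alternatives), age being the only term, with Benjamini-Hochberg adjustment over all 8198 genes. Fold changes are P7 over adult. SE is the log2 fold change divided by the square root of F. CPM values are TMM-scaled. Exon lengths, transcript GC content and gene order (of protein-coding genes) came from GENCODE M21, matched by symbol, with GC content for 99.3% of genes tested. The GC trend was removed with offsets from a smooth trend per library.

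The members and lists were chosen with earlier results of these data known. Named genes are the members, up to 6 called genes of each related list by smallest p, 7 fixed genes (Cd53, Adam10, Itga2b, Itgb3, Gp6, Itga6 and Itgb1), and the 3 closest patterns of members with at least 20 CPM. The screen for single far libraries took the members, the fixed genes and every called gene of the lists. Others named (Ppbp, the single markers, Tspan2, Sdcbp, Ap3s1, Ap3s2, Igsf8, Ptgfrn, Zdhhc2, Zdhhc4) were chosen after their values were seen. Tspan19 and Ahsp had no row under these symbols.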

Additional observations from a re-analysis of the deposited data

Results flagged for a closer look

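Of 35 named genes, 70 groups of 5 libraries were examined for 1 library far from the other 4, and 3 were found, where chance gives about 1 in 20. Itga2b stood at 22349 CPM in adult A, against 16758 to 18193 CPM in the other adult libraries. Ap3b1 stood at 14.1 CPM in adult H, against 17.3 to 18.3 CPM in the others. Pld2 stood at 8.31 CPM in P7 I, against 3.10 to 4.44 CPM in the other P7 libraries. No tetraspanin member had such a library at either age.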

How the results depend on the processing

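Counts of called genes were compared over 21 other settings. Over all genes 2272 were called, and 1215 with a filter of 10 CPM (fewer genes tested). The letters A to C occur at both ages, and the titles do not say whether they pair the libraries. Deviations of same-letter libraries correlated at -0.04, 0.06 and 0.01, and 0 of 3 P7 libraries correlated best with the adult library of their own letter. For P7 B the difference was small, 0.065 with adult B against 0.067 with adult A. Correlations this weak cannot decide whether letters share a batch. With the letters as a replicate block on these 6 libraries 1416 were called, and 1158 with the GC trend removed as well. Of the members 3 were called, 6 with the GC trend removed (2046 of all genes), 2 with GC and block, and 3 to 4 without any 1 library. The log2 fold change of Cd151 was -0.061 with the GC trend removed. Other tetraspanins, 4 called, gave 2 with the filter, 0 in the block, 1 in the same 6 libraries without it and 1 in the block with GC removed. Partners, 6 called, gave 3 by library size, 3 in the block, 3 with GC removed and 1 with both. The TspanC8 list, 3 called, gave 1 without the filter, 0 in the block, 1 with block and GC, and 1 to 3 without any 1 library. Vesicle genes, 9 called, gave 4 in the block, 5 without the block, 4 with block and GC, and 5 to 9 without any 1 library. Palmitoyltransferases, 2 called, gave 1 without the filter, 1 with that of 10 CPM, 1 in the block, 1 without it, 1 with GC removed, 0 with both, and 1 to 2 without any 1 library. The summed level of the members, at -0.60 log2, was -0.66 to -0.54 over 14 settings. In the block Cd37 passed, but not with GC removed as well (0.83, adjusted p = 0.0677), and Tspan32 did not pass in the block (0.86, adjusted p = 0.119) or with both (0.73, adjusted p = 0.186), by edgeR's quasi-likelihood test. Where edgeR called 0, unadjusted p was under 0.05 for 3 of 13 other tetraspanins, 3 of 8 TspanC8 list genes and 2 of 11 palmitoyltransferases. The causes were not tested. Depth limits Cd82 and Tspan33.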

Other observations

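Tetraspanins carry palmitate, which the DHHC enzymes attach and which holds the membrane patches together. Of 24 DHHC genes 11 were tested, with a median log2 fold change of -0.20. Zdhhc20 fell by 0.90, at 13.9 ± 3.30 CPM in P7 libraries and 26.03 ± 5.65 CPM in adult libraries (SD, n = 5 per age), with edgeR quasi-likelihood adjusted p = 0.00564, and lost its call in 2 of 21 other settings (to -0.50 with the GC trend removed). Zdhhc9 rose by 0.66 (edgeR adjusted p = 0.0418) but lost its call in 12 of 20 other settings. Zdhhc4 had 61.7 ± 7.07 CPM in P7 libraries and 60.7 ± 3.88 CPM in adult libraries. Zdhhc2, the enzyme best known for CD9 and CD151, had 27 counts at P7 and 40 in adults and was not tested.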
